A study of Homo sapiens with 24 samples.

Results

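A set of 10 genes that mark or set the epithelial and mesenchymal states of carcinoma cells were followed in 4 breast cancer lines with and without depletion of ADAR1. They were taken by Ensembl identifier from the deposited gene tables, and all 10 of the 10 symbols sought were found among 37416 genes. The 4 epithelial genes were CDH1 (ENSG00000039068, chromosome 16, 68737225 to 68835548), EPCAM (ENSG00000119888, chromosome 2, 47345158 to 47387601), ESRP1 (ENSG00000104413, chromosome 8, 94641074 to 94707466) and GRHL2 (ENSG00000083307, chromosome 8, 101492432 to 101669726), all on the plus strand. The 6 mesenchymal genes were CDH2 (ENSG00000170558, chromosome 18, 27950966 to 28177446, minus), VIM (ENSG00000026025, chromosome 10, 17228259 to 17237593, plus), ZEB1 (ENSG00000148516, chromosome 10, 31318495 to 31529814, plus), ZEB2 (ENSG00000169554, chromosome 2, 144388001 to 144524580, minus), SNAI2 (ENSG00000019549, chromosome 8, 48917690 to 48921740, minus) and TWIST1 (ENSG00000122691, chromosome 7, 19020991 to 19117672, minus). Coordinates are those listed in the files, whose genome build is not given in the sources used here. For 8 of the 10 genes, all but ZEB2 and SNAI2, they equal the span in GENCODE 29 on GRCh38. All 10 passed the filter on low counts, each through the lines in which it was high, so that several were near 0 in other lines.

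The lines were BT549, HCC1806, MDAMB231 and MDAMB468, which the series describes as triple-negative. Cells of each line had been infected for 24 h with lentivirus carrying a short hairpin RNA, either against ADAR1 (shADAR1) or non-targeting (shNT), and selected for 72 h with puromycin at 2 µg/ml. Control cells were therefore also infected and selected. Each of the 8 groups had 3 libraries labelled as biological replicates, 24 in all, made from total RNA after ribosomal RNA removal. A group's replicates are cultures of 1 established line, so the p-values below measure the spread between these libraries. The labels do not state the hairpin's sequence or how many hairpins were used.

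Epithelial cells are held together by E-cadherin, the product of CDH1, and express the adhesion molecule EPCAM. GRHL2 is a transcription factor that keeps epithelial genes active, and ESRP1 is a splicing factor that selects epithelial isoforms. In an epithelial-mesenchymal transition, repressors of the ZEB, SNAI and TWIST families turn such genes off, and cells gain N-cadherin (CDH2) and the intermediate filament vimentin (VIM). ZEB1 and ZEB2 repress the miR-200 microRNAs, which in turn target the ZEB transcripts, a double-negative loop. ADAR1, encoded by ADAR, edits adenosine to inosine in double-stranded RNA.

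The miR-200 family is shown first because it links ZEB1 and ZEB2 to the epithelial members. Its mature sequences fall into seed classes that differ by a single base, and bases 2 to 8, the seed that pairs with target transcripts, are in capitals. They are from RefSeq (GRCh38.p14), which matched 4 of the 5 family members sought.
miR-200b-3p (chr1:1167160-1167181, plus strand): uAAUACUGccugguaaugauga
miR-200c-3p (chr12:6963742-6963764, plus strand): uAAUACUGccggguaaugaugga
miR-200a-3p (chr1:1167916-1167937, plus strand): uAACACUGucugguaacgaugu
miR-141-3p (chr12:6964155-6964176, plus strand): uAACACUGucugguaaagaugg

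Matches to these seeds, CAGTATT and CAGTGTT, were counted on the sense strand of the longest 3′ UTR of each member in GENCODE 29. ZEB1 held 6 and 3 of them in 2549 bases, and ZEB2 held 5 and 4 in 5370 bases. A total of 9 or more was found in 0.0314% of 19091 genes with a 3′ UTR, and at least 1 match in 28.2%. These shares are over UTRs of all lengths. Among genes with a UTR at least as long, as many were held by 6 of 4332 for ZEB1 and 4 of 1064 for ZEB2, the gene itself included. The other members held few or none, with 2 in ESRP1, 1 each in GRHL2 and SNAI2, and 0 in CDH1, CDH2, EPCAM, VIM and TWIST1. One site of each class is shown for each ZEB gene, as transcribed, with the seed match in capitals. A match is a string of letters and not evidence of binding.
ZEB1 (chr10:31528492-31528517, plus strand): ctgatttttacctatCAGTATTattt
ZEB1 (chr10:31528031-31528056, plus strand): caaaatcatcagaatCAGTGTTtgtg
ZEB2 (chr2:144389049-144389074, minus strand): cgcactaccatacatCAGTATTttta
ZEB2 (chr2:144388707-144388732, minus strand): agtgccatccttgtaCAGTGTTaaga

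The promoter of MIR200CHG, the host transcript of miR-200c and miR-141, is shown because ZEB proteins are known to bind CAGGTG and CAGGTA boxes there. RefSeq (GRCh38.p14) gives 300 bases, from 250 before the start site to 50 after it. One copy of each letter string, searched on both strands, stands in capitals; on the printed strand the first reads as CACCTG.
MIR200CHG promoter (chr12:6962995-6963294, plus strand): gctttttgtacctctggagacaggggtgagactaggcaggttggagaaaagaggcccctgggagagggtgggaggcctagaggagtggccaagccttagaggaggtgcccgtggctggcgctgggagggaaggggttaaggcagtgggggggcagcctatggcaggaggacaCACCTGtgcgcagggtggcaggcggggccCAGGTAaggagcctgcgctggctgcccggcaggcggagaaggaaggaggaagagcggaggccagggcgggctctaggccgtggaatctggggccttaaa
CAGGTG occurred in 20.6% of 35116 promoters of this length, CAGGTA in 9.83% and both in 2.33%. Promoter entries were held for 4 members. VIM and ZEB2, with 1 entry each, and CDH2, with 2, held neither string; of the 7 ZEB1 entries, 2 held CAGGTG and 3 held CAGGTA.

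Total counts per library ran from 10370645 to 97218217, and levels are given as CPM, the count scaled to a fixed library total after TMM normalisation. ADAR itself was lower in every shADAR1 library than in any shNT library of its line, with mean ratios from 0.218 in MDAMB231 to 0.371 in MDAMB468. The endothelial markers PECAM1, CDH5 and VWF summed to at most 4.89 CPM in any library, and CD3E of T cells had at most 0.0148 CPM in a shNT group; CD68, which carried the immune sum, had 48.7 CPM in HCC1806 and 2.12 in MDAMB468 shNT, and was highest in MDAMB231. Keratins KRT7, KRT8, KRT18 and KRT19, which mark luminal epithelium, summed to 3108 to 3622 CPM in HCC1806 shNT, 3477 to 4370 in MDAMB468 and 1117 to 1286 in MDAMB231. In BT549 shNT they summed to 1.06 to 1.63 CPM, with KRT19 at 0 counts, so the epithelial markers of the labelled breast cancer cell were almost absent there. The fibroblast markers COL1A1, COL3A1, DCN and LUM summed to 6995 to 8401 CPM in BT549 shNT and 9437 to 9976 CPM in its shADAR1 arm, against at most 39.8 CPM in the other lines. COL1A1 carried most of the difference between the BT549 arms, with means of 4777 CPM in shNT and 6726 in shADAR1. COL3A1 had 2848 and 2954 CPM, LUM 58.5 and 59.4, and DCN 2.16 and 2.49. As these are bulk libraries, fewer cells with a transcript and less transcript per cell cannot be told apart.

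The 4 epithelial genes split the control lines into a pair with high levels and a pair with little or none. CDH1 stood at 256, 227 and 270.1 CPM in the 3 shNT libraries of HCC1806 and at 189.8, 189.9 and 185 CPM in MDAMB468. In BT549 it had 0.177, 0.0616 and 0.0465 CPM, and in MDAMB231 it had 0, 5 and 5 counts. Every HCC1806 library was above every MDAMB468 library (log2 difference 0.42, SE 0.13, edgeR adjusted p 0.00937), and MDAMB468 was above BT549 by 10.88 log2 units (SE 0.24, edgeR adjusted p 2.91e-20). EPCAM gave 300.0, 282 and 317 CPM in HCC1806, 266, 245 and 249 CPM in MDAMB468, and 7.75, 10.9 and 8.18 CPM in MDAMB231. It had 0 counts in all 3 BT549 shNT libraries, which allows at most 0.0183 CPM, so HCC1806 was at least 16400-fold higher. This bound uses a floor of 3 counts over the group, and like the counting intervals below it covers counting error only. EPCAM thus separated MDAMB231 from BT549, at least 489-fold, where CDH1 did not (log2 difference 0.02, SE 0.55, edgeR adjusted p 1.0).

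The epithelial regulators followed the same division. ESRP1 had 169, 141 and 188 CPM in HCC1806 and 144, 135 and 148 CPM in MDAMB468, ranges that overlap. It stood at 1.11, 1.11 and 0.619 CPM in MDAMB231 and 0.444, 0.493 and 0.395 CPM in BT549. GRHL2 had 172, 142 and 176 CPM in HCC1806 and 150.1, 142 and 138 CPM in MDAMB468, which also overlap. Its low lines came in the other order, with 0.621, 0.570 and 0.977 CPM in BT549 and 0, 8 and 1 counts in MDAMB231. By edgeR's quasi-likelihood test GRHL2 was higher in BT549 than in MDAMB231 (log2 difference 2.95, SE 0.46, adjusted p 8.38e-06), whereas ESRP1 was higher in MDAMB231 (1.00, SE 0.39, edgeR adjusted p 0.0345). The ESRP1 difference was no longer called when any of 5 single libraries was left out, all but MDAMB231 replicate 3, with edgeR adjusted p from 0.0539 to 0.243.

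**Figure D1:**
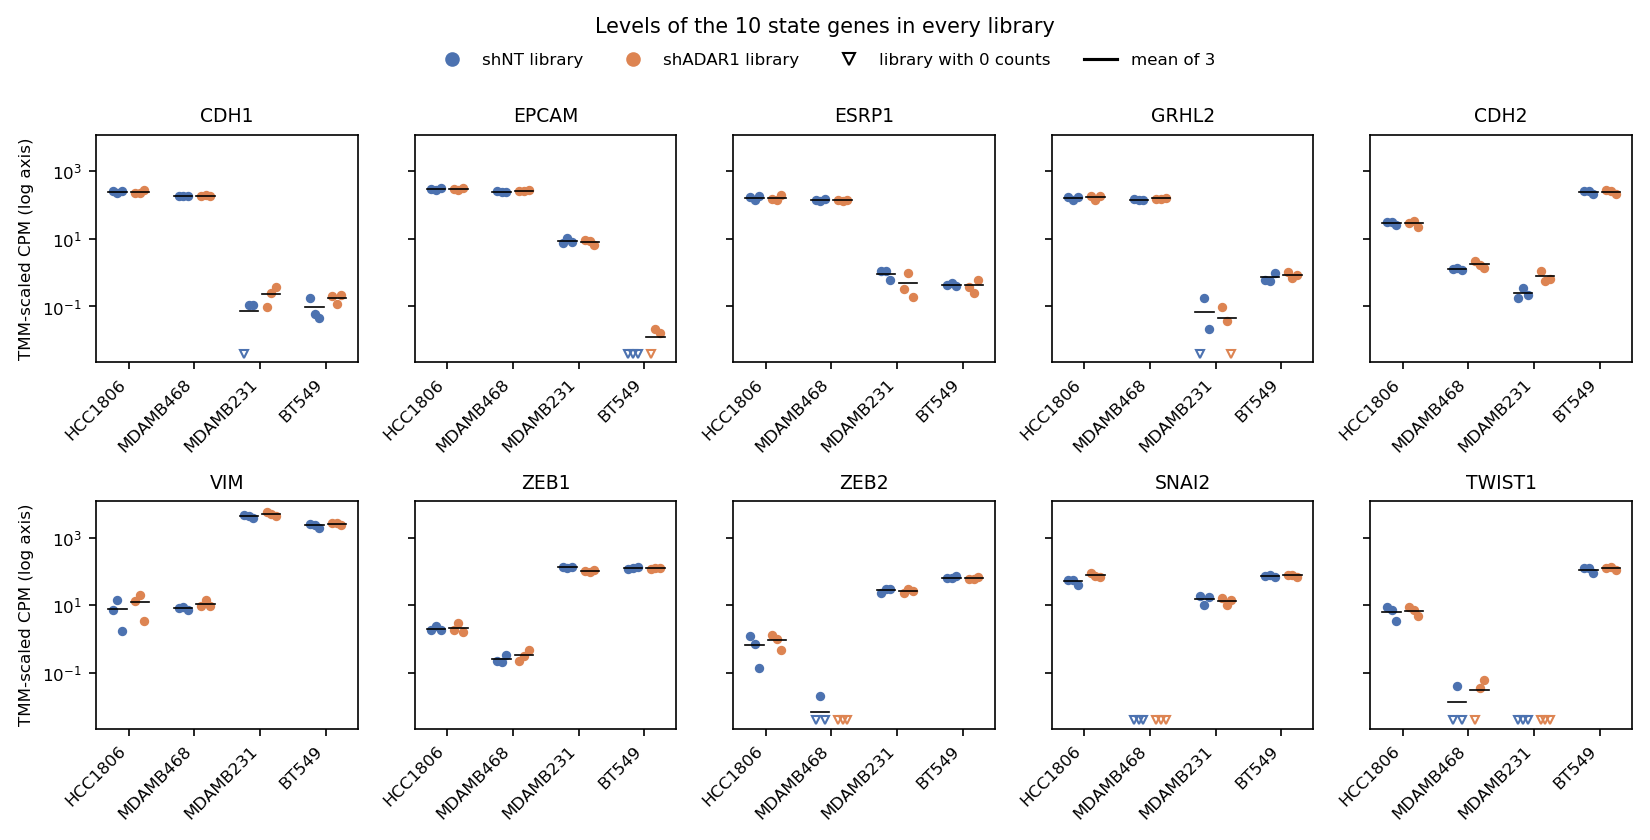
Levels of the 10 genes in all 24 libraries, by line (x axis) as TMM-scaled CPM on a log axis. Each point is a library, blue for shNT and orange for shADAR1, bars are means of 3 and open triangles are libraries with 0 counts. CDH1, EPCAM, ESRP1 and GRHL2 are high in HCC1806 and MDAMB468, and VIM, ZEB1 and ZEB2 in MDAMB231 and BT549, in both arms.

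Vimentin and the ZEB factors showed the opposite division. VIM, which encodes the main intermediate filament of mesenchymal cells, stood at 4545, 4495 and 3873 CPM in MDAMB231 shNT and at 2566, 2427 and 1934 CPM in BT549. It had 8.03, 9.16 and 7.25 CPM in MDAMB468 and 7.43, 14.8 and 1.68 CPM in HCC1806, where the highest library was 8.79 times the lowest. VIM in BT549 was above MDAMB468 by 8.15 log2 units (SE 0.61, edgeR adjusted p 4.37e-11). ZEB1 had 137, 123 and 136 CPM in MDAMB231 and 120.3, 128 and 135 CPM in BT549, which overlap. It stood at 1.89, 2.39 and 1.82 CPM in HCC1806 and to 6, 10 and 19 counts in MDAMB468 (0.227, 0.207 and 0.336 CPM). ZEB2 had 63.4, 63.5 and 71.5 CPM in BT549, 23.2, 30.3 and 29.4 CPM in MDAMB231, and 1.19, 0.707 and 0.135 CPM in HCC1806. In MDAMB468 shNT ZEB2 had 1 count in all, and BT549 was 8670 times higher, with a counting interval of 1560 to 343000. Both ZEB genes were higher in HCC1806 than in MDAMB468, ZEB1 by 2.94 log2 units (SE 0.25, edgeR adjusted p 6.07e-10) and ZEB2 by a ratio of 88.8 (counting interval 15.9 to 3510).

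CDH2, SNAI2 and TWIST1 did not follow that division. CDH2, the N-cadherin gene, had 256, 256 and 212 CPM in BT549 and 31.4, 32.5 and 26.1 CPM in HCC1806. It had only 1.29, 1.35 and 1.18 CPM in MDAMB468 and 0.185, 0.356 and 0.221 CPM in MDAMB231, the line with the most VIM. The 3 neighbouring steps of that order all passed edgeR's test, the smallest with a log2 difference of 2.19 (SE 0.32, adjusted p 2.63e-06). SNAI2, which encodes the repressor Slug, had 74.9, 79.6 and 69.7 CPM in BT549, 54.5, 57.7 and 40.1 CPM in HCC1806 and 18.5, 10.2 and 17.1 CPM in MDAMB231. Its step from BT549 to HCC1806 was 0.56 log2 units (edgeR adjusted p 0.0176), and was not called without BT549 replicate 2 or HCC1806 replicate 3. It was at 0 counts in all 6 MDAMB468 libraries, so that HCC1806 shNT was at least 2220-fold higher than MDAMB468 shNT. TWIST1, a basic helix-loop-helix factor, had 128, 122 and 91.8 CPM in BT549 and 8.84, 7.36 and 3.30 CPM in HCC1806. It was at 0 counts in all 6 MDAMB231 libraries and had 0, 2 and 0 counts in MDAMB468 shNT. BT549 was at least 3840-fold higher in TWIST1 than MDAMB231.

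Set beside each other per kilobase of gene length, control levels of different members can be compared within a line. In HCC1806 EPCAM led with 119 ± 6.99 CPM per kb (SD, n = 3), ahead of CDH1 at 40.7 ± 3.53, ESRP1 at 34.1 ± 4.78, GRHL2 at 26.9 ± 3.06 and SNAI2 at 22.3 ± 4.11. CDH2 stood at 6.06 ± 0.681 CPM per kb in the same libraries. MDAMB468 had EPCAM at 100.5 ± 4.38 CPM per kb and no mesenchymal member above VIM at 1.64 ± 0.194. In MDAMB231 VIM reached 867 ± 75.4 CPM per kb, ZEB1 15.2 ± 0.871 and SNAI2 6.69 ± 1.96. In BT549 VIM had 465 ± 66.9 CPM per kb, followed by TWIST1 at 56.1 ± 9.57, CDH2 at 48.8 ± 5.08, SNAI2 at 32.7 ± 2.18, ZEB1 at 14.8 ± 0.846 and ZEB2 at 5.02 ± 0.353. BT549 was therefore the line with all 6 mesenchymal members above 1 CPM per kb, and MDAMB468 had only VIM of these above it. HCC1806 combined high epithelial members with SNAI2, CDH2 and TWIST1 above it. Its VIM, at 1.60 ± 1.32 CPM per kb, had a mean like that of MDAMB468.

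Each pair of control lines was compared in the same fit, in which most genes tested passed an adjusted p of 0.05. All 10 members passed between BT549 and HCC1806, where 63.5% of all genes did, between BT549 and MDAMB468 (61% of all genes) and between HCC1806 and MDAMB231 (59%). Between MDAMB231 and MDAMB468 9 members passed, all but TWIST1, against 61.8% of genes. The 2 lines with high VIM, BT549 and MDAMB231, differed in 7 members (56.5% of genes), with CDH1, VIM and ZEB1 not passing. VIM did not overlap there, unlike CDH1 and ZEB1, and passed in the fit of these 2 lines alone (edgeR adjusted p 2.34e-05). It also passed without HCC1806 shNT replicate 3 or HCC1806 shADAR1 replicate 3 (edgeR adjusted p 0.026 and 0.035). With the replicate number as a block VIM passed as well, at an edgeR adjusted p of 0.0374. Same-numbered shNT libraries of these 2 lines correlated in their deviations at only 0.0214 to 0.0791, so the numbers were not pairs between lines. HCC1806 and MDAMB468 differed in 6 members (62.9% of genes): CDH1, CDH2, ZEB1, ZEB2, SNAI2 and TWIST1 were all higher in HCC1806. EPCAM, ESRP1, GRHL2 and VIM did not pass between that pair (edgeR adjusted p 0.0776, 0.359, 0.318 and 0.966). EPCAM, unlike the others, did not overlap between the 2 lines and passed in the fit of these lines alone (edgeR adjusted p 0.00921).

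Wider lists of junction, regulator and matrix genes were read beside the members. All 26 epithelial junction genes, which include claudins, desmosomal proteins and membrane serine proteases, passed as lower in BT549 than in HCC1806 and than in MDAMB468. Their median log2 differences were -6.71 and -8.07, beside -0.08 and 0.00 over all genes tested. Against MDAMB231, HCC1806 was higher in 24 of the 26 (median 2.77, beside 0.05 over all genes) and MDAMB468 in 25 of the 26. MAL2, a transport protein of polarised cells, had 246 ± 29.8 CPM in HCC1806 shNT, 1.77 ± 0.668 in MDAMB231 and 0 counts in BT549 (SD, n = 3). RAB25, an epithelial recycling GTPase, had 43.5 ± 4.89 CPM in HCC1806, 63.9 ± 2.47 in MDAMB468 and 0.0444 ± 0.0384 in MDAMB231. BT549 was below MDAMB231 in 21 junction genes and above it in 2, so that MDAMB231 lay between the other lines for this list, as it did for EPCAM. DSC2, a desmosomal cadherin, had 21.3 ± 1.36 CPM in MDAMB231 and 0.0233 ± 0.0403 in BT549.

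Epithelial regulators other than the members, 15 genes with transcription and splicing factors, divided the lines likewise. BT549 was lower than HCC1806 in 14 of them (median -6.65) and lower than MDAMB468 in 13, with KLF4 and TP63 higher. Of all 21352 genes tested, 6301 passed as higher and 7247 as lower in BT549 than in HCC1806. Against MDAMB468 these numbers were 6509 and 6521. TP63, the basal epithelial factor, had 174 ± 30.7 CPM in HCC1806 and 0.962 ± 0.192 in MDAMB468, so the 2 lines with high CDH1 differed in it. Among 25 mesenchymal effectors, BT549 exceeded HCC1806 in 18 and was below it in 5 (median 2.73), and exceeded MDAMB468 in 20 and was below it in 3 (median 3.86). MDAMB231 exceeded MDAMB468 in 19 and was below it in 3, beside 6667 and 6529 of all genes. Between BT549 and MDAMB231 the effectors did not share a direction. BT549 was higher in 12 and lower in 11 (median -0.39), beside 6069 and 5997 of all genes. SPARC, a matrix glycoprotein, had 3114 ± 349 CPM in BT549 and at most 0.871 CPM in the other lines' shNT groups. AXL, a receptor tyrosine kinase, had 2195 ± 330 CPM in MDAMB231, 649 ± 195 in BT549, 50.2 ± 18.5 in HCC1806 and 0.856 ± 0.133 in MDAMB468. Transition factors other than the members did not share a direction: of 15 tested, BT549 was higher than HCC1806 in 5 and lower in 4. That split is near the one of all genes given above, so it does not set these factors apart. PRRX1 had 48.7 ± 3.93 CPM in BT549 and 0 counts in HCC1806 shNT, whereas FOXQ1 had 0 counts in BT549 and 96.3 ± 23.7 CPM in HCC1806.

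**Figure D2:**
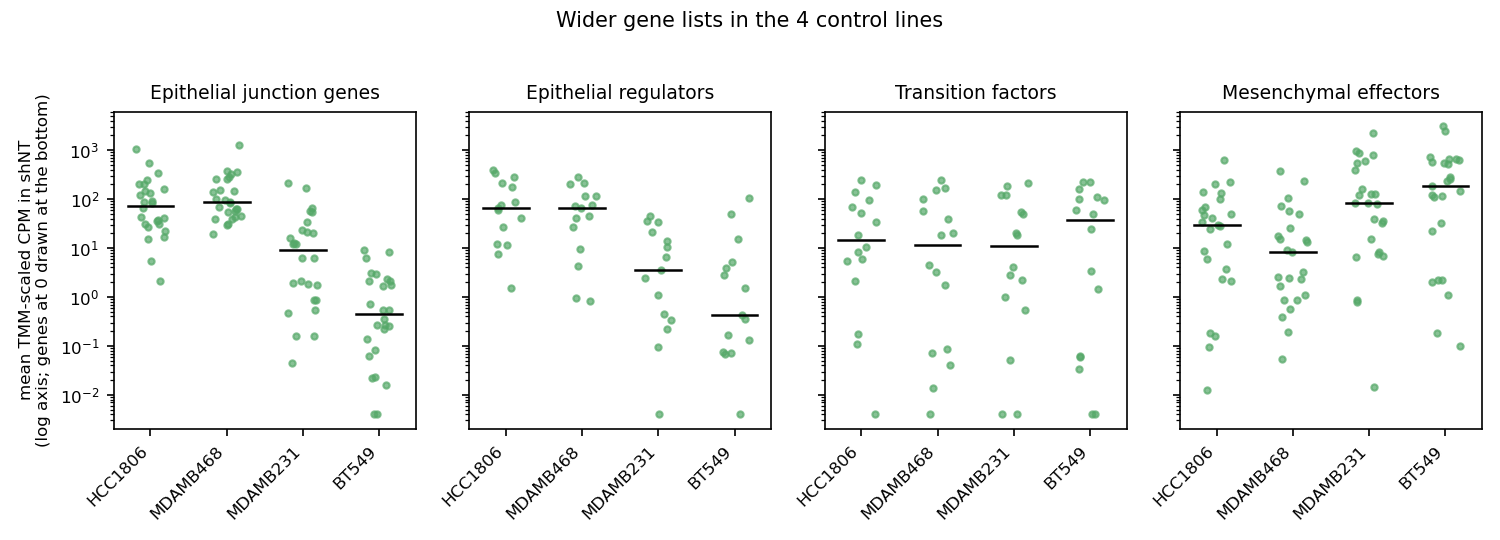
Mean TMM-scaled CPM in shNT (log y axis) of each gene of 4 wider lists, by line; a point is a gene, the bar is the list's median, and genes at 0 are drawn at the bottom. The median of the junction genes was 73.6 CPM in HCC1806, 86.6 in MDAMB468, 9.07 in MDAMB231 and 0.449 in BT549, while that of the mesenchymal effectors was highest in BT549 at 183 CPM. Gene by gene, 12 effectors passed as higher and 11 as lower in BT549 than in MDAMB231 (median log2 difference -0.39).

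The miR-200 loci were read from the same tables, since reads from their primary transcripts are counted there; mature microRNAs were not measured. The 5 hairpin rows (MIR200A, MIR200B, MIR200C, MIR141 and MIR429) held 791 counts in the 6 HCC1806 libraries and 969 in the 6 MDAMB468 libraries. They held 0 in the 6 BT549 libraries and 7 in the 6 MDAMB231 libraries. MIR200CHG had 33, 60 and 98 counts in HCC1806 shNT and 13, 48 and 58 in MDAMB468 shNT. It had 0 counts in all 6 MDAMB231 libraries, and in BT549 the only ones were 9 in shADAR1 replicate 3. HCC1806 and MDAMB468, where these rows had most of their reads, were the lines with ZEB1 at or below 2.88 CPM in every library. With 4 lines no correlation is given.

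**Figure D3:**
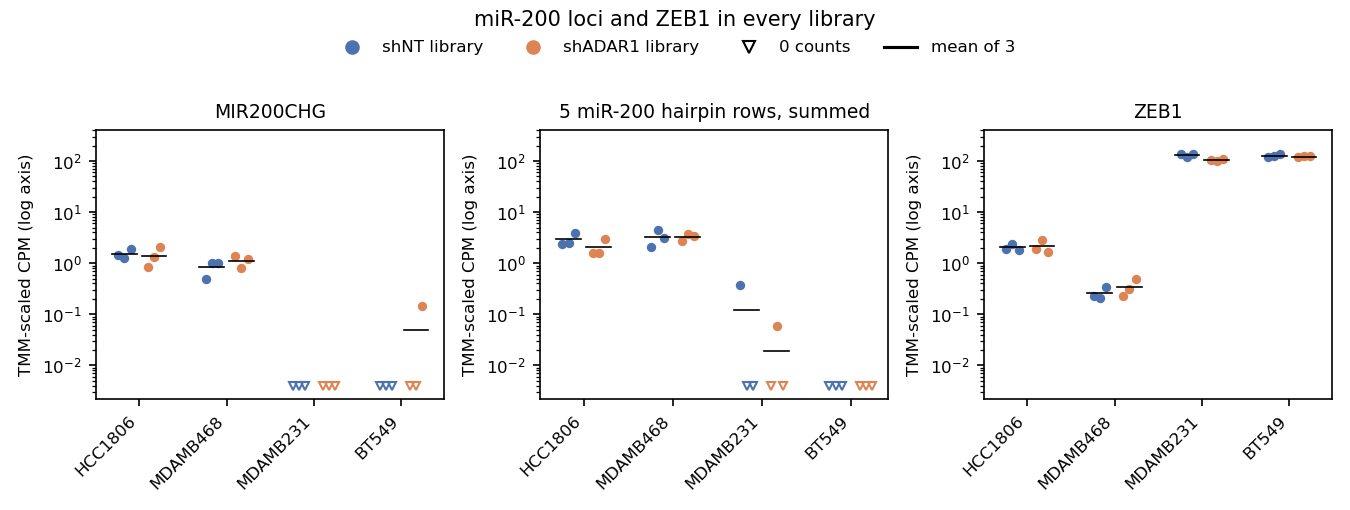
MIR200CHG, the sum of the 5 miR-200 hairpin rows and ZEB1 in every library, as TMM-scaled CPM on log axes, by line. Points are libraries (blue shNT, orange shADAR1), bars are means of 3 and open triangles are libraries with 0 counts. Hairpin sums lie between 1.56 and 4.40 CPM in the lines with low ZEB1, and at 0 in all BT549 libraries and 4 of the 6 from MDAMB231.

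With ADAR1 depletion few members changed. In the fit of all 24 libraries without pairing, CDH2 in MDAMB231 was the member that passed within a line. It had 1.15, 0.577 and 0.656 CPM in shADAR1 (24, 30 and 28 counts) against 0.185, 0.356 and 0.221 CPM in shNT (2, 16 and 10 counts). The arms did not overlap, and the mean rose 3.13-fold (log2 fold change 1.39, SE 0.36, edgeR adjusted p 0.0386). In that line 2.01% of all genes tested passed. Even after the rise, CDH2 in MDAMB231 stayed below its MDAMB468 control mean of 1.27 CPM. The call rests on few reads and on each library: it was lost on leaving out any MDAMB231 library but shADAR1 replicate 2, with edgeR adjusted p from 0.0564 to 0.243, and in the fit on that line alone (adjusted p 0.327).

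No member passed in BT549 (0.473% of genes did), HCC1806 (0.0468%) or MDAMB468 (0.0375%), nor did any pass the joint test of a difference between the 4 lines (0.0234%). CDH2 also passed in the mean of the 4 line effects, where 2.96% of genes did (0.47, SE 0.12, edgeR adjusted p 0.0285). By line, the effect was 0.07 (BT549), -0.04 (HCC1806), 1.39 (MDAMB231) and 0.44 (MDAMB468). In MDAMB468 it had 2.27, 1.69 and 1.41 CPM in shADAR1 against 1.29, 1.35 and 1.18 CPM in shNT, without overlap, but did not pass (SE 0.22, edgeR adjusted p 1.0). That call was lost without MDAMB231 shADAR1 replicate 1, MDAMB231 shNT replicate 1 or 3, or MDAMB468 shNT replicate 3 (edgeR adjusted p 0.0511 to 0.113). The larger estimates were in the lines with little CDH2; without the block their difference between lines did not pass (edgeR joint adjusted p 0.739). Mean effects are not given for EPCAM, ZEB2, SNAI2 and TWIST1, since they include lines with 3 counts or fewer in a group.

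**Figure D4:**
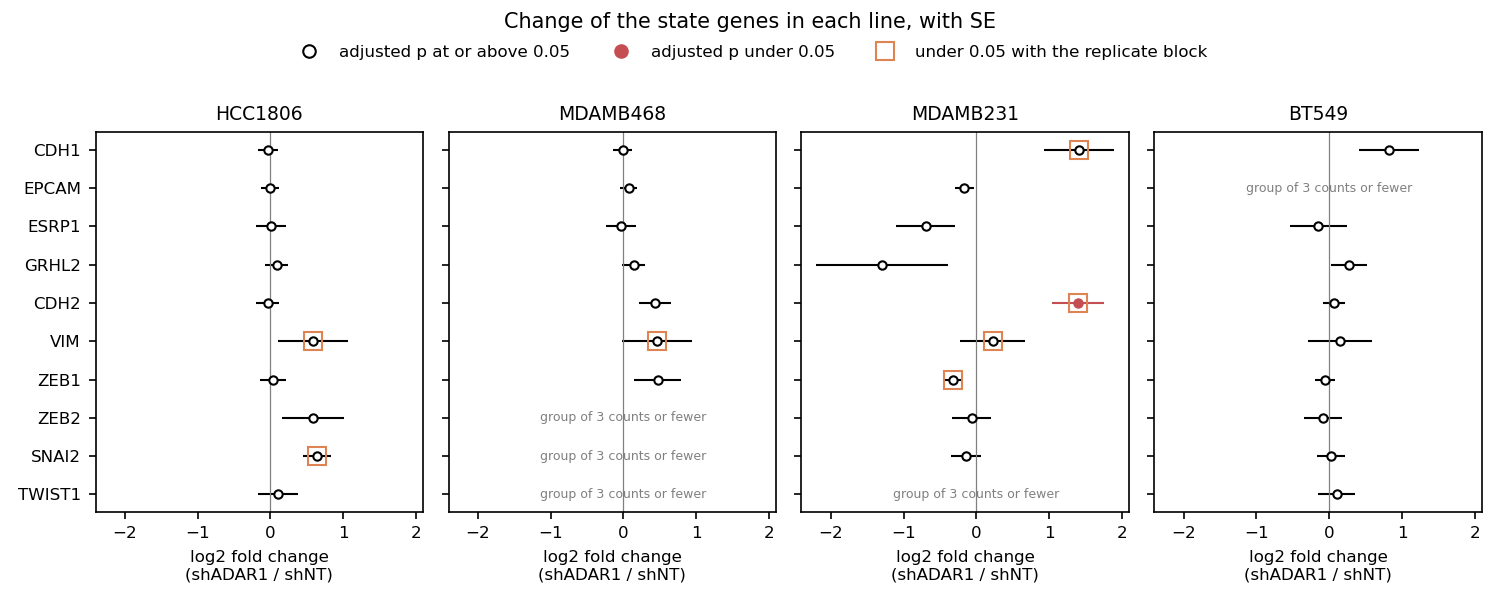
Log2 fold change of shADAR1 over shNT with its SE for each member and line (x axis, edgeR fit of all 24 libraries); the red point passed an adjusted p of 0.05 and squares mark members that passed with the replicate block. Where a group held 3 counts or fewer no value is drawn. CDH2 in MDAMB231 is the red point, at 1.39.

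Both arms of a line carry replicates 1 to 3, and same-numbered libraries deviated together in BT549, HCC1806 and MDAMB231, where the numbers were read as pairs. With a block for that number, 4 members passed in MDAMB231, where 11.4% of genes did, 2 in HCC1806 (2.1%), 1 in MDAMB468 (1.66%) and 0 in BT549 (5.14%). The joint test called 5 members (4.69% of genes) and the mean effect 3 (13.2%). In MDAMB468 the numbers did not meet the rule for pairs, and its blocked values are given with that limit.

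VIM was the member that moved the same way in every pair. In HCC1806 it had 13.1, 19.7 and 3.47 CPM in shADAR1 against 7.43, 14.8 and 1.68 CPM in shNT, so that the same-numbered ratios were 1.76, 1.33 and 2.07. The arms overlapped because replicates differed more than arms did, and the unpaired fit did not call it (0.58, SE 0.48, edgeR adjusted p 1.0). With the block the change was 0.68 (SE 0.093, edgeR adjusted p 0.000254). In MDAMB231 the ratios were 1.22, 1.14 and 1.13 (5563, 5129 and 4377 CPM in shADAR1), with a blocked change of 0.22 (SE 0.069, edgeR adjusted p 0.0437). In MDAMB468 shADAR1 had 9.38, 14.5 and 9.64 CPM, each above every shNT library, and the blocked change was 0.46 (SE 0.088, edgeR adjusted p 0.00827). In BT549 the ratios were 1.05, 1.09 and 1.22 and the blocked change of 0.16 did not pass (SE 0.069, edgeR adjusted p 0.239). On average the change was 0.38 with the block (SE 0.040, edgeR adjusted p 6.88e-07). Unpaired, VIM passed nowhere: the edgeR adjusted p was 0.948 in MDAMB231, 1.0 in MDAMB468 and BT549, and 0.583 for the mean of 0.36 (SE 0.23). That fit shares 1 estimate of the spread over all groups, so these p-values do not measure the spread within each line alone. In shNT the SD of VIM was 82.4% of its mean in HCC1806, 14.4% in BT549, 8.69% in MDAMB231 and 11.8% in MDAMB468. Fits on single lines did not call VIM either. The highest shADAR1 library in HCC1806, at 19.7 CPM, compares with 1934 CPM in the lowest BT549 control.

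SNAI2 and ZEB1 moved in single lines. SNAI2 had 91.5, 75.1 and 70.1 CPM in HCC1806 shADAR1 against 54.5, 57.7 and 40.1 CPM in shNT, without overlap. The change was 0.64 in both fits, with an edgeR adjusted p of 0.659 unpaired and 0.000181 with the block. In BT549 and MDAMB231 SNAI2 changed by 0.02 and -0.14 in the unpaired fit (SE 0.19 and 0.21), and the blocked joint test of a difference between lines passed (edgeR adjusted p 0.00284). That test includes MDAMB468, where SNAI2 had 0 counts in every library. No SNAI2 effect can be estimated in that line, so the test cannot be read as a comparison of all lines. HCC1806 shADAR1 had SNAI2 at 78.9 ± 11.2 CPM, beside the BT549 control mean of 74.7 ± 4.96 CPM (SD, n = 3); the 2 were not tested against each other. ZEB1 was lower in all 3 MDAMB231 shADAR1 libraries, at 106, 98.5 and 112 CPM, than in all shNT libraries, at 137, 123 and 136 CPM. The change was -0.32 (SE 0.14, edgeR adjusted p 0.338) unpaired and -0.32 (SE 0.059, edgeR adjusted p 0.000741) with the block. In BT549, with a like level of ZEB1, the change was -0.05 (SE 0.14), and the blocked joint test gave an edgeR adjusted p of 0.0473.

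CDH1 in MDAMB231 is near its floor, with 2, 13 and 16 counts in shADAR1 against 0, 5 and 5 in shNT, and is not tested where 10 counts are required in every library. These are 0.0958, 0.250 and 0.375 CPM against 0, 0.111 and 0.111 CPM, so the arms overlap, and the blocked fit called it (1.52, SE 0.41, edgeR adjusted p 0.0191) where the unpaired fit did not (edgeR adjusted p 0.177). In BT549 CDH1 had 12, 11 and 13 counts against 10, 4 and 2, and no call in either fit (0.82, SE 0.42, edgeR adjusted p 0.811). In the lines where CDH1 is abundant the estimates were near 0: HCC1806 had 233, 225 and 278 CPM in shADAR1 and MDAMB468 had 183, 195 and 183 CPM, with changes of -0.04 and -0.01 (SE 0.13 each). In the mean of the 4 lines CDH1 changed by 0.55 (SE 0.17, edgeR adjusted p 0.0881) unpaired and 0.59 (edgeR adjusted p 0.00518) with the block. All MDAMB231 libraries stayed below 0.38 CPM for CDH1, beside 185 CPM in the lowest MDAMB468 control.

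**Figure D5:**
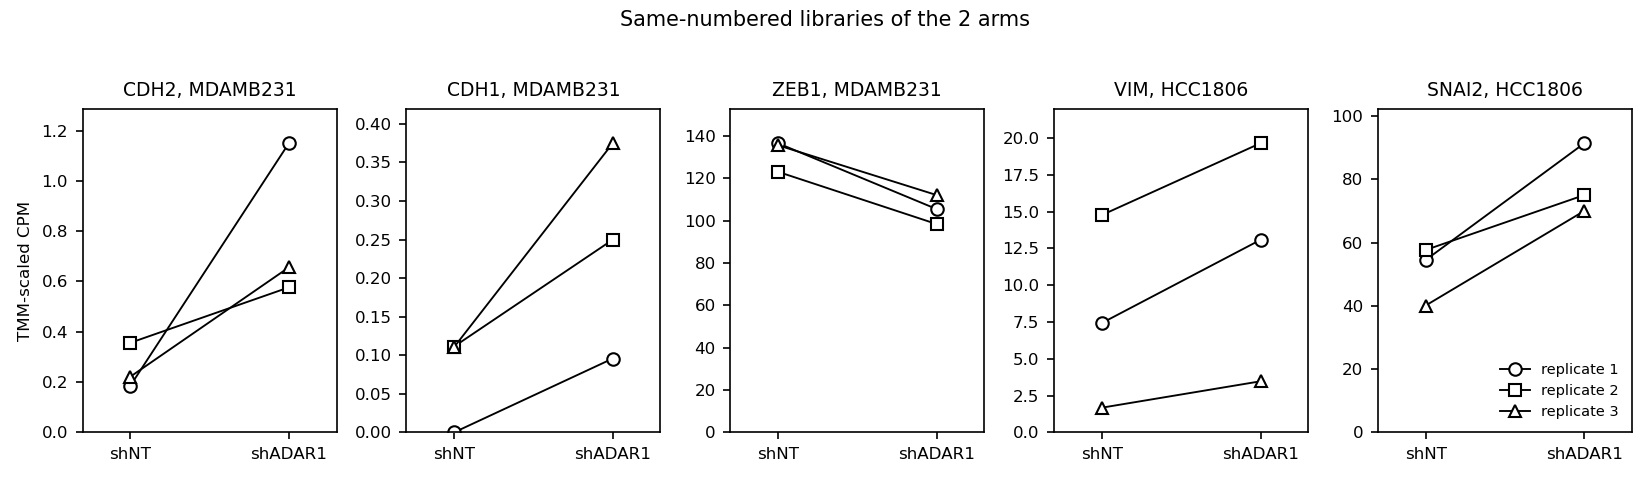
TMM-scaled CPM (y axis from 0) of 5 member and line combinations in shNT and shADAR1, with a line joining the libraries of the same replicate number. All 3 pairs rise for CDH2, CDH1, VIM and SNAI2 and all 3 fall for ZEB1; VIM in HCC1806 differs more between replicates than between arms.

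The remaining members gave no call in either fit. EPCAM had 301, 281 and 313 CPM in HCC1806 shADAR1 and 267, 259 and 273 CPM in MDAMB468, with changes of -0.01 and 0.07 (SE 0.12 each). In MDAMB231 it had 9.15, 8.84 and 6.49 CPM (-0.16, SE 0.13), and in BT549 shADAR1 it had 0, 2 and 1 counts. GRHL2 had 157, 155 and 162 CPM in MDAMB468 shADAR1, each above every shNT library, with a change of 0.14 (SE 0.16, edgeR adjusted p 1.0). ESRP1 in MDAMB231 had 7, 51 and 8 counts in shADAR1 against 12, 50 and 28 in shNT (-0.69, SE 0.40, edgeR adjusted p 0.559). Without shADAR1 replicate 2 that became -1.91 and passed (edgeR adjusted p 0.0192), so 1 library decides it. TWIST1 in BT549 had 125, 135 and 107 CPM (0.10, SE 0.25), and ZEB2 had 59.6, 58.8 and 68.9 CPM there (-0.08, SE 0.26). ZEB2, SNAI2 and TWIST1 stayed at 0 to 4 counts per library in MDAMB468, and TWIST1 at 0 in MDAMB231.

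The replicates of HCC1806 differed in the members of both states in both arms, which bears on the VIM values above. All 6 mesenchymal members, VIM, ZEB1, ZEB2, TWIST1, CDH2 and SNAI2, were lowest in replicate 3 of each arm, and all 4 epithelial members were lowest in replicate 2 of each arm. The wider epithelial lists did not share the latter. Lowest in replicate 2 of both arms were 23.1% of junction genes and 20.0% of epithelial regulators, beside 22.9% of all genes. ZEB2 had 1.33, 0.974 and 0.487 CPM in shADAR1 and TWIST1 had 8.63, 7.42 and 4.69 CPM. Of 21 mesenchymal effectors with a mean of at least 1 CPM in this line, 16 (76.2%) were lowest in replicate 3 of both arms, beside 23.8% of 13926 genes. FN1, the fibronectin gene, had 147, 225 and 49.1 CPM in shNT and 177, 283 and 49.4 CPM in shADAR1. The share was 55.6% of 9 cadherins and catenins, 46.2% of 13 transition factors, 42.9% of 14 TGF-beta genes, 40.0% of 15 epithelial regulators and 23.1% of 26 junction genes. This count was chosen after the values were seen, and what sets the replicates apart was not tested.

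Few genes of the wider lists passed with ADAR1 depletion in the unpaired fit. None passed in BT549, where 0.473% of all genes did, HCC1806 (0.0468%) or MDAMB468 (0.0375%). With such low shares, lists of this size would seldom hold a call. In MDAMB231, where 2.01% of all genes passed, 3 of 26 junction genes did. DSC2 fell from 21.3 ± 1.36 to 12.3 ± 2.40 CPM (edgeR adjusted p 0.00777). CDS1, a lipid synthesis enzyme, had 0.936 CPM in shADAR1 against 1.88 in shNT (edgeR adjusted p 0.0312), and ST14, the protease matriptase, rose from 0.545 to 1.16 CPM (edgeR adjusted p 0.0207). TP63 was the single call among 15 regulators, falling from 1.11 to 0.446 CPM (edgeR adjusted p 0.0194). QKI, an RNA-binding protein that promotes mesenchymal splicing, rose in MDAMB231 from 122, 114 and 131 CPM to 175, 167 and 161 CPM (0.45, SE 0.10, edgeR adjusted p 0.0167). It passed in the mean effect (0.30, SE 0.051, edgeR adjusted p 0.000741), where BT549 gave 0.26, HCC1806 0.29 and MDAMB468 0.19, none called alone. RBFOX2, another splicing factor of the mesenchymal state, rose on average by 0.19 (SE 0.047, edgeR adjusted p 0.0254). MSN, the actin linker moesin, fell in MDAMB231 from 970.0 ± 128 to 654 ± 167 CPM (-0.57, SE 0.13, edgeR adjusted p 0.023) and on average by 0.29. Median log2 changes in MDAMB231 were -0.08 for junction genes, -0.12 for effectors and 0.09 for transition factors, beside 0.00 over all genes.

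With the block more list genes passed, in both directions. MDAMB231 had 5 junction genes higher and 3 lower, 1 regulator higher and 3 lower, 2 transition factors higher and 2 lower, and 4 effectors higher and 2 lower, beside 11.4% of all genes. BT549, where 5.14% of all genes passed, had 7 of 25 effectors called (4 higher, 3 lower), 3 regulators and 3 transition factors (2 higher and 1 lower in each), and 2 junction genes (1 each way). HCC1806, where 2.1% passed, had 2 regulators and 2 transition factors higher, 1 effector higher and 1 lower, and no junction gene. MDAMB468, where 1.66% passed, had 1 regulator and 2 transition factors higher, 2 effectors higher and 1 lower, and no junction gene. Each of the 4 lists thus had called genes in both directions in MDAMB231.

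For each member, the 3 genes nearest in pattern were found over the 8 group means, as the root mean square difference of centred log2 CPM among genes reaching 1 CPM in some group. CDH1 lay nearest IRX2 (0.44 log2 units), DSC3 (0.45) and FXYD3 (0.51), DSC3 being a desmosomal cadherin. ESRP1 lay nearest LPAR3 (0.25), CRB3 (0.39) and KRT6B (0.39), and GRHL2 nearest LAD1 (0.41), IQANK1 (0.59) and RAB25 (0.74). EPCAM had no neighbour as close, with SPINT1 at 0.73. VIM lay nearest ADAMTSL1 (0.27), ZEB1 nearest PDE3B (0.47) and EMP3 (0.62), and ZEB2 nearest ADAMTS15 (0.54). CDH2 lay nearest the bradykinin receptor gene BDKRB2 (0.44), SNAI2 nearest ZFHX4 (0.54) and TWIST1 nearest MSC (0.77). These distances are descriptions over 4 lines.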

How the data were processed

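Read counts per gene were analysed for 24 libraries of 4 established cell lines. The deposited counts are whole numbers per gene, per the file headers. The deposited CPM values, per the file headers, scale counts to the library total, and the deposited RPKM values divide them by the listed gene length. Both were checked against the counts and not used for tests (largest differences 4.7e-11 and 1.2e-10). The submitters' processing notes name bcl2fastq, STAR, Subread featureCounts and edgeR, with no role given; genome build, annotation and strand use are not given in the sources used here. Without strand, reads of antisense genes cannot be told apart; in GENCODE 29 such genes overlap exons of VIM (12.9% of its exon bases by VIM-AS1 and 12.5% by another), TWIST1 (6.9%), ZEB2 (6.4%), CDH1 (5.6%), ZEB1 (4.2%), CDH2 (2.7%) and GRHL2 (0.8%).

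Symbols came from a name table (33972 of 37416 genes). After filterByExpr 21352 genes were tested by the quasi-likelihood F test of edgeR 4.0.16 after TMM scaling (R 4.3.3), in 1 model with a coefficient for each of the 8 groups. Benjamini-Hochberg adjustment ran over the whole table, and genes under 0.05 were called. SEs were derived from the fold change and F. On simulated counts of 20825 genes for the BT549 contrast, 91.0% of 200 genes changed by 1 log2 unit were recovered. These genes were drawn only from those well above the floor in BT549. The share therefore does not describe recovery of members with few counts, of smaller changes or in other lines. Alternatives were DESeq2 1.42.0, other scalings (RLE, upper quartile), dropping the filter, a minimum of 10 counts per library, only the lines compared, a replicate block, and leaving out each library.

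Same-numbered libraries of the 2 arms correlated in their deviations at 0.139 to 0.25 in BT549, 0.242 to 0.443 in HCC1806 and 0.149 to 0.348 in MDAMB231, all over 0.1 and read as pairs; MDAMB468 had 0.0651 to 0.166. Members and lists were chosen with earlier results of these data known. All members and ADAR were named. Of each list and comparison at most 4 genes were named by rule, those past the threshold with the largest change and a mean of at least 1 CPM in the higher group. Outside this rule, KLF4 was named between lines and FN1 for the HCC1806 replicates. So were CTNND1, VCL and CDH6, called with the block, and TGFB2 with ADAR1 depletion.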

Additional observations from a re-analysis of the deposited data

Results flagged for a closer look

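The effect of shADAR1 differed between the 4 lines for 5 members by edgeR's joint test with the replicate number as a block, whereas none passed without it. Adjusted p-values with the block were 0.00284 for SNAI2, 0.023 for CDH2, 0.0254 for VIM, 0.0473 for ZEB1 and 0.049 for CDH1; without it they were 1.0, 0.739, 1.0, 1.0 and 0.983. SNAI2 was higher in HCC1806, CDH2 and CDH1 had their largest changes in MDAMB231, and ZEB1 was lower in MDAMB231. VIM had the same sign in all lines, with blocked log2 changes of 0.16 (BT549), 0.68 (HCC1806), 0.22 (MDAMB231) and 0.46 (MDAMB468). CDH1 and CDH2 rest on at most 30 counts per library in MDAMB231. The numbers were not read as pairs in MDAMB468, which enters this test. SNAI2 had 0 counts in every MDAMB468 library, so its joint test includes a line where no effect can be estimated.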

How the results depend on the processing

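With the replicate block, members called rose from 0 to 2 in HCC1806, from 1 to 4 in MDAMB231, from 0 to 1 in MDAMB468, from 1 to 3 in the mean effect and from 0 to 5 in the joint test; it changed no other count by over 1.5 times. DESeq2 called 2 members in the mean effect, adding CDH1 (adjusted p 0.0334). The fit on the MDAMB231 libraries alone called 0 there. Requiring at least 10 counts in every library left VIM as the only member tested, so MDAMB231 and the mean effect had 0 calls, and VIM alone gave 1, 0, 1, 1, 0 and 1 call in the comparisons of BT549 with HCC1806, MDAMB231 and MDAMB468, HCC1806 with MDAMB231 and MDAMB468, and MDAMB231 with MDAMB468. Leaving out each library gave 0 to 2 calls in MDAMB231 and in the mean effect, and 0 in BT549, HCC1806, MDAMB468 and the joint test. Between control lines the ranges were 9 to 10, 6 to 8, 10, 10, 6 to 7 and 9, in the same order of pairs. CDH2 lost its mean-effect call without MDAMB231 shADAR1 replicate 1, MDAMB231 shNT replicate 1 or 3, or MDAMB468 shNT replicate 3 (log2 0.41 to 0.45).

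Values of members that were not called changed sign when 1 library was left out by more than their SE in 8 cases. Ranges over such fits were -0.18 to 0.13 for CDH2, -0.24 to 0.24 for ZEB1, -0.018 to 1.08 for ZEB2 and -0.23 to 0.37 for TWIST1 in HCC1806. They were -0.24 to 0.019 for EPCAM and -1.95 to 0.87 for GRHL2 in MDAMB231, -0.36 to 0.34 for GRHL2 in the mean effect, and -0.95 to 0.48 for VIM in HCC1806 against MDAMB468 controls. A further 41 sign changes of uncalled values stayed within 1 SE. Over all genes, 101, 10, 429 and 8 passed in BT549, HCC1806, MDAMB231 and MDAMB468 without the block, 1098, 448, 2434 and 354 with it, and 299, 42, 812 and 42 with DESeq2. At the smallest library's depth, members under about 1 CPM rest on few reads.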

Other observations

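The catenins and other cadherins that partner CDH1 were measured beside it. In the unpaired fit 0 of 12 passed in any line, where at most 2.01% of all genes did. With the block 3 passed in MDAMB231, where 11.4% of all genes did. CTNND1 (p120-catenin) and VCL (vinculin) fell by 0.18 and 0.34 on the log2 scale, and the cadherin gene CDH6 was called higher on 0, 5 and 30 counts against 0, 2 and 0, with overlapping arms. TGF-beta is a classical inducer of the mesenchymal state. Of its 14 pathway genes SKIL, a feedback repressor, passed on average (0.28, SE 0.066, edgeR adjusted p 0.0195), where 2.96% of all genes did. TGFB2, which encodes a ligand of the pathway, passed in all 4 lines in the blocked fit, with log2 changes of 0.42 (BT549), 0.35 (HCC1806), 0.42 (MDAMB231) and 0.33 (MDAMB468), at edgeR adjusted p of 0.0178 or less. Without the block it passed in none of them, with edgeR adjusted p of 0.61 to 1.0, and the MDAMB468 numbers were not read as pairs. It was singled out after its values were seen.

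Of the receptors whose absence defines triple-negative tumours, ESR1 had 19.0 ± 1.79 CPM in HCC1806 shNT, 6.85 ± 1.24 in MDAMB468, 0.462 ± 0.184 in MDAMB231 and 0.0118 ± 0.0205 in BT549 (SD, n = 3). PGR was at most 0.737 CPM, and ERBB2 lay between 75.9 and 100.1 CPM in the 4 control groups.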
